A study of Mus musculus with 12 samples.

Results

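The cytosolic ribosomal protein genes were examined for peaks of histone H3 lysine 36 acetylation (H3K36ac) in the presence and absence of SIRT7, a deacetylase that removes this mark. Members were the protein-coding genes of the mouse RefSeq gene table (build GRCm38.p6, with the coordinates of mm10) whose symbol begins with Rpl, Rps or Rplp, followed by a number and at most 1 letter and 1 further digit. The rule found 83 of 21883 protein-coding genes, made up, by symbol, of 44 genes of the large subunit, 30 of the small subunit, 3 of the stalk and 6 paralogs. The paralogs were a fixed list that did not hold *Rpl32l*, which was counted with the large subunit. A gene counted as having a peak in a sample when any base of a called peak lay within 3000 bp of the gene start, and the same count over the 21464 protein-coding starts of known strand, all 83 members among them, served as the background.

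The ribosome is built from ribosomal RNA and a set of proteins that are needed in nearly equal amounts. The genes for those proteins are short, are scattered over most chromosomes and are transcribed strongly in almost every cell, and many start within a run of pyrimidines that places them in the 5′ TOP class of growth-regulated mRNAs. Acetylation of lysine 36 is found mainly around the starts of active genes, and methylation of the same lysine is found within transcribed gene bodies.

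The series held 6 H3K36ac ChIP-seq samples of 50000 spermatogonia-enriched testis cells each, taken at postnatal day 5 (Pnd 5) from mice of the 129S1/Sv background. There were 3 WT samples and 3 samples of mice that lacked *Sirt7* throughout the body (*Sirt7*-/-), numbered 2, 3 and 4 in both genotypes and each from its own mouse. Cells were enriched by differential plating and not by sorting, so other testis cells could remain, and because the deletion was not limited to germ cells those cells lacked *Sirt7* as well. The study reports that most cells isolated this way stained for PLZF, a marker of undifferentiated spermatogonia, in flow cytometry shown for WT. The authors called broad peaks in each sample against an input library of its own.

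The WT lists held 906, 64 and 294 peaks in replicates 2, 3 and 4, and the *Sirt7*-/- lists held 2840, 2045 and 2591, so WT replicate 2 stood apart from the other WT samples. The lists hold no read coverage, and a gene without a called peak may still carry the mark. *Sirt7* itself had no peak in any of the 6 samples, which does not test the deletion. Among 10 spermatogonial markers, *Zbtb16* (which encodes PLZF), *Uchl1* and *Gfra1* had a peak in *Sirt7*-/- replicate 2 and *Dazl* in *Sirt7*-/- replicate 4, and among 14 markers of somatic testis, endothelial and immune cells, *Sox9* had one in *Sirt7*-/- replicate 3. The remaining markers had none, so peaks at markers did not settle the labelled cell type. In such bulk samples fewer cells of a type could not be told apart from less of the mark per cell.

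Ribosomal protein genes were marked more often than protein-coding genes in general in the *Sirt7*-/- samples. A peak lay at 32, 25 and 28 of the 83 genes in *Sirt7*-/- replicates 2, 3 and 4, or 38.6% (exact Clopper-Pearson 95% confidence interval 28.1 to 49.9), 30.1% (20.5 to 41.2) and 33.7% (23.7 to 44.9). The corresponding shares of all protein-coding starts were 13.2%, 9.73% and 11.7%. In WT replicate 2 the peaks reached 17 ribosomal protein genes, which is 20.5% (12.4 to 30.8) beside 4.38% of all starts. WT replicates 3 and 4 had 1 such gene each, 1.2% (0.0305 to 6.53) in both, beside 0.317% and 1.35% of all starts. The intervals cover counting error over genes only.

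The number of marked ribosomal protein genes was 28.3 ± 3.51 (SD, n = 3) in *Sirt7*-/- and 6.33 ± 9.24 in WT samples, a difference of 22 genes, and every *Sirt7*-/- sample lay above every WT sample. Over all protein-coding starts the numbers were 2480 ± 374 and 433 ± 453, which also did not overlap. The share of ribosomal protein genes divided by the share of all starts was 2.92, 3.10 and 2.88 in the *Sirt7*-/- samples and 4.68, 3.80 and 0.892 in the WT samples. These ratios averaged 2.96 ± 0.117 and 3.12 ± 1.98, so the genotypes differed in them by less than the spread between WT replicates. The WT ratios of replicates 3 and 4 rest on 1 gene each, and the WT mean was 2.01 when peaks needed a -log10 q of at least 2, where the *Sirt7*-/- mean was 2.91.

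At equal list length too few members remained to compare the genotypes. When each list was shortened to its best 64 peaks, ranked by the authors' -log10 q, the ribosomal protein genes with a peak were *Rpl21* and *Rps14* in WT replicate 2, *Rpl13a* in WT replicate 3 and *Rps19* in *Sirt7*-/- replicate 4, with none in the other samples. The *Sirt7*-/- mean minus the WT mean was then -0.667 genes. Lists of this length reached 0.284% to 0.349% of all protein-coding starts in each sample, so counts of 0 to 2 members say little about the members themselves. The cut also removed the difference in list length between the genotypes, and what the difference in numbers depended on was not tested.

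**Figure D1:**
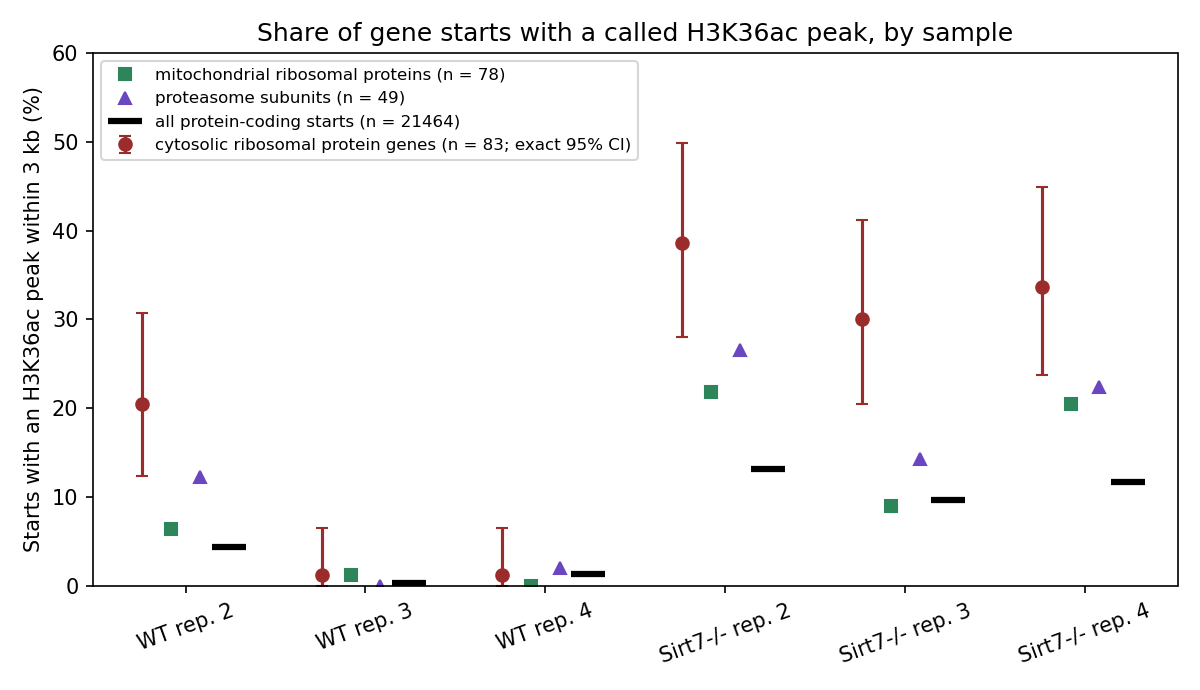
Share of gene starts with an H3K36ac peak within 3 kb (y axis, percent) in the 6 samples (x axis). Circles with exact 95% confidence intervals are the 83 cytosolic ribosomal protein genes, squares and triangles are 78 mitochondrial ribosomal protein and 49 proteasome subunit genes, and bars are all 21464 protein-coding starts. The circles lie at 30.1% to 38.6% in the *Sirt7*-/- samples and above the bars in every sample except WT replicate 4.

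Across the 6 samples, 48 of the 83 genes had a peak at least once (57.8%, beside 19.7% of all protein-coding starts) and 35 had none. By number of samples, 17 genes had a peak in 1, 14 in 2, 10 in 3, 6 in 4 and 1 in 5. None had a peak in all 6 samples or in all 3 WT samples, for which the background was 0.102%. At least 1 *Sirt7*-/- sample had a peak at 45 of the genes (54.2%, background 19.3%), and at least 1 WT sample had one at 18 (21.7%, background 5.12%). WT replicate 2 held 17 of those 18 genes.

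Recurrence among replicates was close to that of genes in general. Of the 45 genes marked in any *Sirt7*-/- sample, 18 were marked in 1, 14 in 2 and 13 in all 3. The last number is 28.9% of the 45, and over all protein-coding starts marked in any *Sirt7*-/- sample it was 26.4%. The 13 genes are 15.7% of all members, beside a background of 5.09%.

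The genes marked in all 3 *Sirt7*-/- samples but never in WT all belonged to the small subunit. They were 6 genes, among them *Rps19*, *Rps7*, *Rps13* and *Rps25*, or 7.23% of the 83 members, and 2.45% of all protein-coding starts met the same rule. With 3 samples against 3, the smallest p of a two-sided Fisher's exact test is 0.1. That was the p of each of the 6 genes and of 525 genes in all. After Benjamini-Hochberg adjustment over all starts the smallest p was 1, so no gene passed, and 0 genes had an unadjusted p under 0.05. Counting genes marked in 2 or 3 *Sirt7*-/- samples but never in WT gave 16 members, 19.3% beside a background of 6.46%. The opposite pattern, a peak in WT and in no *Sirt7*-/- sample, was found at *Rpl31*, *Rpl9* and *Rpl18*, 3.61% beside 0.475%, all through WT replicate 2. The *Rpl18* peak began 2841 bp downstream of its start and lay nearer to another protein-coding start, at 306 bp.

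The makeup of that set of 6 rested on single samples. Without WT replicate 2 it held 11 genes, 8 of the small subunit and 3 of the large, with *Rps23*, *Rps14*, *Rpl11*, *Rpl4* and *Rpl35a* joining. Without *Sirt7*-/- replicate 3 it held 10, of which 3 were large-subunit genes, and without *Sirt7*-/- replicate 4 it held 11, of which 4 were. With a -log10 q of at least 2 the rule was met by *Rps19*, *Rps7*, *Rps23* and *Rpl4*, of which the last is a large-subunit gene, and with peaks of at least 500 bp only, 2 genes met it. The background of 2.45% belongs to the unaltered rule, and none is given for these altered ones. Whether the changes are particular to the members was not tested.

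**Figure D2:**
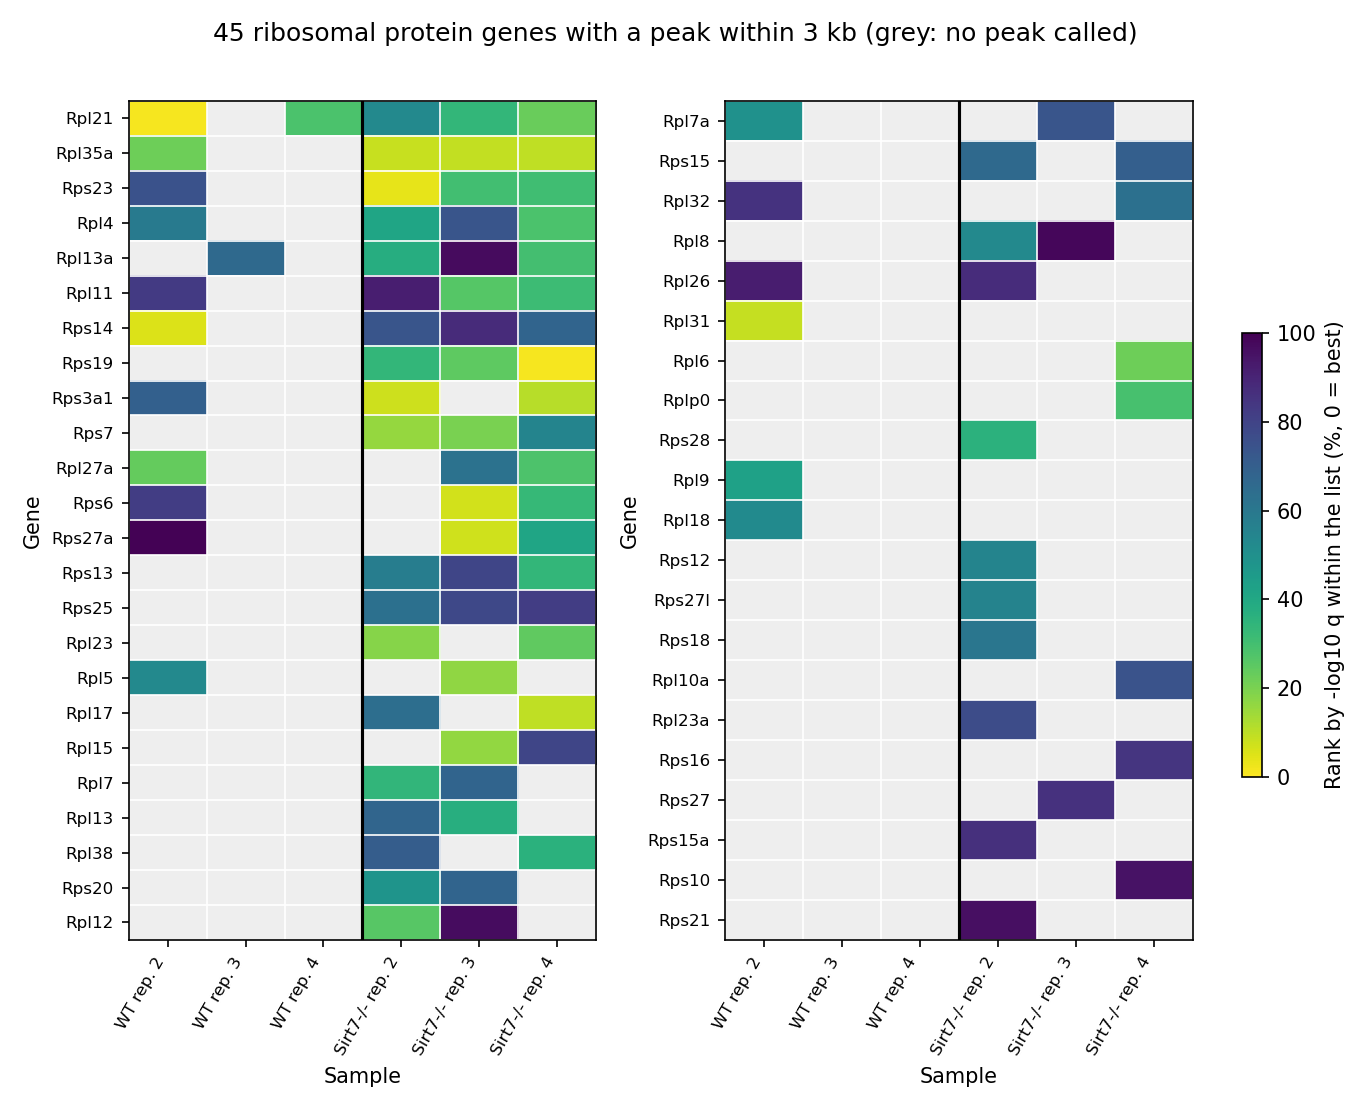
Ribosomal protein genes with a peak within 3 kb, 45 of the 48 (rows), in the 6 samples (columns), coloured by the rank of the peak within its own list as a percentage of the list, with 0 the best -log10 q and grey where no peak was called. Filled cells are concentrated in the 3 right columns of each panel, the *Sirt7*-/- samples, and those in WT are nearly all in replicate 2.

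Of the 44 large-subunit genes, which include the proteins that line the exit tunnel and surround the peptidyl transferase centre, 14, 13 and 13 had a peak in *Sirt7*-/- replicates 2, 3 and 4 (31.8%, 29.5% and 29.5%). Of the 30 small-subunit genes, whose proteins handle the mRNA and the decoding site, 17, 12 and 14 did (56.7%, 40.0% and 46.7%). In WT replicate 2 the order was the other way round, with 12 large-subunit genes (27.3%) and 5 small-subunit genes (16.7%). WT replicates 3 and 4 each had 1 large-subunit gene and no small-subunit gene. In all, 24 large-subunit and 22 small-subunit genes had a peak in at least 1 sample, and 5 and 8 had one in all 3 *Sirt7*-/- samples. The difference between the subunits was not tested.

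**Figure D3:**
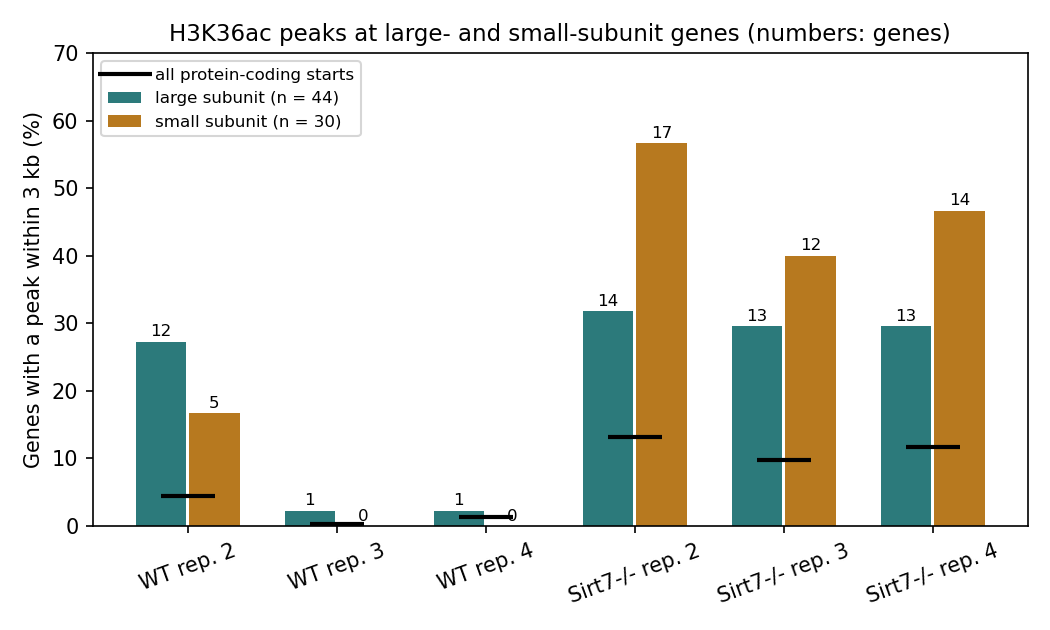
Share of large-subunit genes (teal, n = 44) and small-subunit genes (brown, n = 30) with an H3K36ac peak within 3 kb (y axis, percent, from 0) in each sample, with the number of genes above each bar and the share of all protein-coding starts as a black line. The small-subunit bars are the taller ones in the 3 *Sirt7*-/- samples and the shorter ones in the 3 WT samples.

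Stalk genes and paralogs had few peaks. Of the stalk genes, which encode the P proteins that recruit elongation factors, *Rplp0* had a peak in *Sirt7*-/- replicate 4 and *Rplp1* and *Rplp2* had none. Among the paralogs *Rpl3l*, *Rpl7l1*, *Rpl10l*, *Rpl22l1*, *Rpl39l* and *Rps27l*, a peak was called only at *Rps27l*, a p53-responsive relative of *Rps27* (chr9:66944624-66949522, plus strand). It lay in *Sirt7*-/- replicate 2, was 491 bp wide, had a fold over input of 4.13, ranked 1570th of 2840 and began 1552 bp downstream of the gene start. *Rpl10l* and *Rpl39l*, which are known for their expression in male germ cells, had no peak in any sample. The 4 members on the X chromosome, *Rpl10*, *Rpl36a*, *Rpl39* and *Rps4x*, likewise had none, whereas 48 of the 79 autosomal members had at least 1. No share of X-linked starts in general is given beside these 4 genes, and the contrast was not tested.

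Small nucleolar RNA genes, whose products guide the modification of ribosomal RNA, often lie within introns of host genes. Members with a *Snord*, *Snora* or *Scarna* gene annotated inside them in the RefSeq gene table were counted as hosts. The 23 hosts had peaks at 11, 8 and 9 genes in the *Sirt7*-/- samples (47.8%, 34.8% and 39.1%). The 60 members without such an annotated gene, which may include hosts missed by the annotation, had peaks at 21, 17 and 19 (35.0%, 28.3% and 31.7%). In WT replicate 2 the shares were 21.7% and 20.0%. This difference was not tested either.

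The promoter sequences of the genes marked in all 3 *Sirt7*-/- samples show what kind of start the peaks adjoin, and those of 3 unmarked genes are set after them for contrast, chosen after the calls were known. Each stretch runs 5′ to 3′ on the strand of the gene from 80 bases before the gene start to 15 bases from it, in RefSeq sequence of GRCm38.p6. Capitals mark the letters of a searched motif or of its reverse complement. The marked genes and their stretches are *Rps19* at chr7:24884512-24884606 (plus strand), *Rps7* at chr12:28635939-28636033 (minus strand), *Rps13* at chr7:116334176-116334270 (minus strand), *Rps25* at chr9:44407634-44407728 (plus strand), *Rps23* at chr13:90923042-90923136 (plus strand), *Rpl35a* at chr16:33056373-33056467 (plus strand), *Rpl4* at chr9:64173307-64173401 (plus strand), *Rpl13a* at chr7:45128731-45128825 (minus strand) and *Rpl11* at chr4:136053379-136053473 (minus strand). The unmarked genes are *Rpl28* at chr7:4792885-4792979 (plus strand), *Rpl35* at chr2:39005117-39005211 (minus strand) and *Rpl41* at chr10:128549154-128549248 (minus strand). In *Rpl35* the letters CCGCCC and CTTTCC overlap by 1 base and are marked as 1 run.
Rps19: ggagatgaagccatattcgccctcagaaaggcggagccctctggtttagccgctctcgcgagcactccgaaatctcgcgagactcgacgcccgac
Rps7: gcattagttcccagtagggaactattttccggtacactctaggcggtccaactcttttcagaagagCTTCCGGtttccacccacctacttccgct
Rps13: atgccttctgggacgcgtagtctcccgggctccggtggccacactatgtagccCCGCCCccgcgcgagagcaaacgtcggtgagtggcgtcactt
Rps25: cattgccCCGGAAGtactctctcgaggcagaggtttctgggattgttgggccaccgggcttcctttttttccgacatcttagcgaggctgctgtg
Rps23: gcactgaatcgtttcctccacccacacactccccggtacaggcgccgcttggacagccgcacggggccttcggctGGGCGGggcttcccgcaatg
Rpl35a: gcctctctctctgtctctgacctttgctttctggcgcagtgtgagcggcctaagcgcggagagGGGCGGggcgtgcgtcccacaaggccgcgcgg
Rpl4: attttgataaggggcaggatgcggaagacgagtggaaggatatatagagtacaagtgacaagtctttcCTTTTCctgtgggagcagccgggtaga
Rpl13a: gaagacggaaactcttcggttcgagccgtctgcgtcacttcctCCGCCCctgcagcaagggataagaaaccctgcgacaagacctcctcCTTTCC
Rpl11: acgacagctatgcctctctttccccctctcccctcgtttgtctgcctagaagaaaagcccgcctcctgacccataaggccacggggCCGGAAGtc
Rpl28: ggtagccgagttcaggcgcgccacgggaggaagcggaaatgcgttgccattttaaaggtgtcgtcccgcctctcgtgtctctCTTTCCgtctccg
Rpl35: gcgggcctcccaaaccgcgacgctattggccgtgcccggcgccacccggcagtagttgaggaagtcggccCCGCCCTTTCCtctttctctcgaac
Rpl41: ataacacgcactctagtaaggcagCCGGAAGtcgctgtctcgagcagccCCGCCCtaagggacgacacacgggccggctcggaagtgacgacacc

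The table of promoter sequences holds 63 of the 83 members, 53 of them with the start used here, and 9 of the 13 genes marked in all 3 *Sirt7*-/- samples (69.2%). A comparison of motifs over that set would therefore be void, and the matches only describe the 9 genes printed. The first 4 motifs were searched on both strands of 300 bases that run from 250 before the start to 50 after it. CCGGAAG, the core of ETS sites, was present at *Rps7*, *Rps25* and *Rpl11*, and in 8.86% of all 32851 promoters. GGGCGG, the GC box, was present at *Rps19*, *Rps13*, *Rps23*, *Rpl35a* and *Rpl13a*, at *Rps19* outside the printed stretch, and in 35.7% of promoters. AAGATGG, the core of YY1 sites, was present at *Rps7*, *Rpl35a* and *Rpl13a*, outside the printed stretch, and in 6.34% of promoters. TATAAA, the TATA box, was in none of the 9 and in 13.6% of promoters. CTTTCC or CTTTTC, a run as in TOP initiators, was searched on the strand of the gene within 15 bases of the start. It was found at *Rpl13a* and *Rpl4* and in 2.44% of promoters, and among the unmarked genes printed it was present at *Rpl28* and *Rpl35*. Those were the only unmarked members with a promoter at the start used here that carried it. The unmarked genes printed therefore do not stand for the unmarked members in this motif. A gene start in the table is the outermost one, which can lie upstream of the main transcript, so the absence of these letters says only that they are not in this window.

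Some of the peaks covered these stretches whole. They did so in 4 of 4 peaks at *Rpl35a*, 3 of 4 at *Rps23*, 3 of 4 at *Rpl4*, 2 of 3 at *Rps25*, 2 of 4 at *Rpl13a* and 1 of 3 at *Rps19*. At *Rpl11*, *Rps13* and *Rps7* no peak touched the stretch, and the peaks lay further into the gene.

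Among large-subunit genes, *Rpl21* was called in the most samples, 5 of 6 (chr5:146832890-146837032, plus strand). Its peak was 333 bp wide in WT replicate 2 and 430 bp in WT replicate 4, and 508, 598 and 540 bp in *Sirt7*-/- replicates 2, 3 and 4. It ranked 12th of 906 and 83rd of 294 in the WT lists and 1501st of 2840, 693rd of 2045 and 596th of 2591 in the *Sirt7*-/- lists. A rank places a peak within its own list, and because the lists differ in length, ranks of 1 gene in different samples do not measure a change between them, here or at the genes that follow. The *Rpl21* peak was wider in all 3 *Sirt7*-/- samples than in both WT samples. Peaks at all protein-coding starts had the same order, with medians of 501, 460.5 and 475.5 bp in *Sirt7*-/- and 376 and 303.5 bp in WT replicates 2 and 4. All 5 peaks began 3 to 77 bp downstream of the start and shared 259 bp.

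*Rpl35a*, a gene mutated in some cases of Diamond-Blackfan anaemia, had peaks in the top 10% of every *Sirt7*-/- list. Its peaks were 571, 624 and 706 bp wide in the *Sirt7*-/- samples and stood at 8.42%, 9.19% and 9.57% of their lists, counted from the best. In WT replicate 2 the peak was 698 bp wide and stood at 22.0%. All 4 peaks crossed the gene start and shared 571 bp, and the start of *Iqcg* lies 692 bp away.

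*Rpl4*, whose product lines the exit tunnel, had peaks of 902, 270 and 676 bp in the *Sirt7*-/- samples and of 810 bp in WT replicate 2. They stood at 41.1%, 73.8% and 28.5% of the *Sirt7*-/- lists and at 59.3% of the WT list. The *Zwilch* start lies 283 bp away, and the peak of *Sirt7*-/- replicate 3 lay wholly upstream of *Rpl4*, nearer to another protein-coding start.

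*Rpl13a*, which hosts 4 small nucleolar RNA genes, was the single ribosomal protein gene marked in WT replicate 3. That peak was 322 bp wide and ranked 42nd of 64. In the *Sirt7*-/- samples the peaks were 348, 714 and 1053 bp wide, and ranked 1068th of 2840, 1982nd of 2045 and 778th of 2591.

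*Rpl11*, which together with *Rpl5* and 5S rRNA can bind MDM2 and stabilise p53, had narrow peaks throughout. They measured 262, 317 and 280 bp in the *Sirt7*-/- samples and 286 bp in WT replicate 2. Their ranks were 91.4%, 26.2% and 31.5%, and 83.0% in WT. The peaks of *Sirt7*-/- replicates 2 and 3 did not overlap, so the 4 calls did not mark 1 common stretch. *Rpl5* had a peak in WT replicate 2 and *Sirt7*-/- replicate 3.

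Among small-subunit genes, *Rps23* encodes a protein of the decoding centre and was marked in WT replicate 2 as well as in all *Sirt7*-/- samples. The peaks were 479 bp wide in WT and 521, 573 and 432 bp in *Sirt7*-/-, and they shared 328 bp across the start. The WT peak stood at 74.8% of its list and the *Sirt7*-/- peaks at 3.87%, 30.2% and 30.6%. *Rps14*, also marked in WT replicate 2, had its peak at 5.30% of that list and at 73.7%, 87.6% and 68.0% of the *Sirt7*-/- lists. Its peaks were 488 bp wide in WT and 234, 563 and 509 bp in *Sirt7*-/-.

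*Rps19*, the gene most often mutated in Diamond-Blackfan anaemia, had the best mean rank of the 6 genes marked in *Sirt7*-/- alone. Its peaks were 358, 752 and 377 bp wide, with folds over input of 3.78, 4.91 and 6.17 within their own lists, and ranked 964th of 2840, 511th of 2045 and 38th of 2591. *Rps7* followed, with widths of 473, 245 and 309 bp and ranks of 15.9%, 20.2% and 55.0%. At both genes the peaks of all 3 samples overlapped, by 263 and 185 bp.

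*Rps13* had peaks of 516, 422 and 239 bp, all downstream of the start, at ranks of 57.4%, 79.3% and 33.8%. *Rps25*, needed for initiation at some viral internal ribosome entry sites, had peaks of 827, 504 and 794 bp and the weakest mean rank of the 6, 63.0%, 78.3% and 81.8%. The start of *Trappc4* lies 166 bp from that of *Rps25*, and the peak of *Sirt7*-/- replicate 3 was nearer to another protein-coding start. When peaks nearer to another start were left out, 5 of the 6 genes still met the rule.

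**Figure D4:**
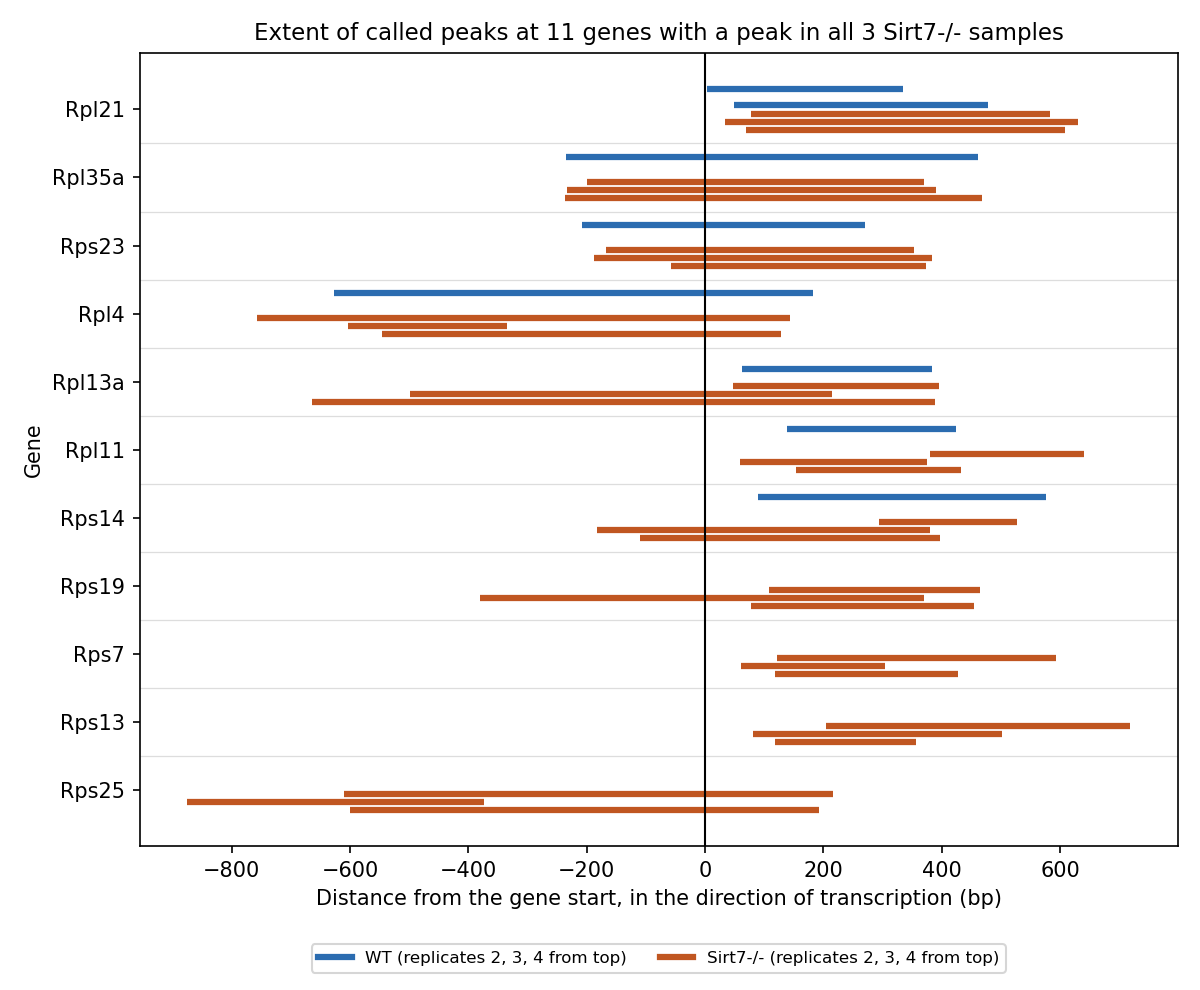
Called peaks (horizontal bars, blue WT, orange *Sirt7*-/-, replicates 2, 3 and 4 from the top) at 11 of the 13 ribosomal protein genes marked in all 3 *Sirt7*-/- samples, against distance from the gene start in bp in the direction of transcription (x axis, start at 0). Most bars lie downstream of the start, and *Rpl35a* and *Rps23* are crossed at the start in all their samples.

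Another 4 members had peaks in 2 *Sirt7*-/- samples and WT replicate 2. They were *Rps6*, whose product is phosphorylated by S6 kinase, *Rps3a1*, *Rpl27a* and *Rps27a*, which encodes a fusion of ubiquitin with a ribosomal protein. The *Rps3a1* peaks ranked at 7.64% and 10.6% of the *Sirt7*-/- lists and at 69.3% of the WT list. A further 10 members had peaks in 2 *Sirt7*-/- samples alone, namely *Rpl7*, *Rpl8*, *Rpl12*, *Rpl13*, *Rpl15*, *Rpl17*, *Rpl23*, *Rpl38*, *Rps15* and *Rps20*. *Rpl7* had the widest peak at any member, 2052 bp in *Sirt7*-/- replicate 3, and 1 of only 209 bp in replicate 2. The genes marked once in *Sirt7*-/- and once in WT were *Rpl5*, *Rpl7a*, *Rpl26* and *Rpl32*, and a single *Sirt7*-/- sample marked 14 genes, among them *Rps10*, *Rps12*, *Rps15a*, *Rps16*, *Rps18*, *Rps21*, *Rps27*, *Rps27l*, *Rps28*, *Rpl6*, *Rpl10a*, *Rpl23a* and *Rplp0*. Among the 35 genes with no peak were *Rpl3* and *Rps3*, *Rpl22* and *Rpl24*, and *Rps2*.

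In position, the marks at ribosomal protein genes lay mostly just inside the gene, as they did at genes in general. Of 104 peaks in all samples, 83 had their midpoint downstream of the start, 98 had it within 1000 bp and 32 overlapped the start. Midpoints were downstream in 81.3%, 72.0% and 82.1% of member peaks in the *Sirt7*-/- samples and in 77.8%, 77.2% and 77.5% for all starts with a peak. The median midpoint of the 104 peaks was 250 bp downstream. Per sample it lay 261, 200.5 and 250 bp downstream in *Sirt7*-/- (237 ± 32.2, n = 3), and for all protein-coding starts 284, 283.5 and 310 bp (293 ± 15.2). In WT replicate 2 it was 272.5 bp beside 287.75 bp. Within a gene the position was similar between samples, since among the 31 members called in 2 or more samples, the peaks of 29 overlapped in every pair of samples, *Rpl11* and *Rpl32* being the exceptions. Peaks further in were found at *Rpl38* and *Rpl17*, beginning 946 and 818 bp and 1618 and 1560 bp downstream in *Sirt7*-/- replicates 2 and 4.

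No peak served 2 members, and 101 of the 104 lay no farther from the member's start than from any other protein-coding start. Ties, as at peaks that overlapped both starts, are counted in the 101. Another protein-coding start lay within 3000 bp of 21 members (25.3%, beside 14.3% of all starts). The 62 members without such a neighbour had peaks at 40.3%, 25.8% and 37.1% in the *Sirt7*-/- samples. Ribosomal protein genes are short, with a median length of 3175 bp beside 17542 bp for all protein-coding genes, and a peak covered a median of 9.23% of its gene. The part of gene length in the counts was not tested.

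The peaks at these genes were on the narrow side of the *Sirt7*-/- lists. Median widths were 447.5, 387 and 398 bp in *Sirt7*-/- replicates 2, 3 and 4 (411 ± 32.2, n = 3), beside 501, 460.5 and 475.5 bp (479 ± 20.5) for all starts with a peak. In WT replicate 2 the medians were 366 and 376 bp. Over all samples the 104 peaks ranged from 209 to 2052 bp. The member median lay below that of all starts in each *Sirt7*-/- sample, and the means of these medians differed by more than either SD. The single peaks of WT replicates 3 and 4, 322 and 430 bp wide, lay above the medians of their lists, 271 and 303.5 bp.

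**Figure D5:**
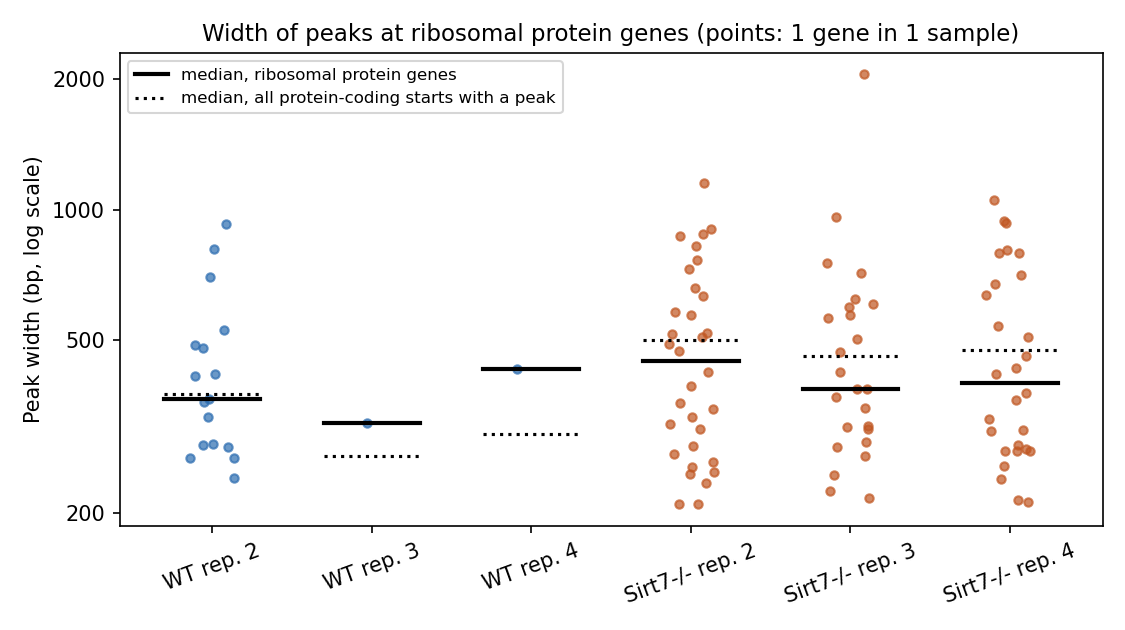
Width of each peak at a ribosomal protein gene (y axis, bp, log scale) in the 6 samples, 1 point per gene, with the member median as a solid line and the median of all protein-coding starts with a peak as a dotted line. In the 3 *Sirt7*-/- samples the solid line lies below the dotted one, at 387 to 447.5 bp beside 460.5 to 501 bp.

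Within each list, 0% being the best -log10 q, the median rank of the member peaks was 55.0%, 62.2% and 31.2% in the *Sirt7*-/- samples (49.5 ± 16.2, n = 3) and the medians of all starts with a peak averaged 48.6 ± 1.24. The order therefore differed between replicates, with members below the middle of the list in replicates 2 and 3 and above it in replicate 4. The top 10% of the list held 3 member peaks in each *Sirt7*-/- sample and 3 in WT replicate 2. Fold over input, which the authors computed for each peak and which is comparable only within a list, had medians of 4.03, 4.46 and 4.31 at members and 4.08, 4.68 and 4.11 at all starts with a peak. No member peak had a fold above 6.33.

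Other genes of the translation machinery were also marked in every *Sirt7*-/- sample, at shares above those of all starts. Of 19 such genes, a list of elongation and initiation factors, ribosomal proteins named outside the symbol rule and other genes known for TOP mRNAs or tied to the ribosome, 10, 8 and 9 had a peak in the *Sirt7*-/- samples (52.6%, 42.1% and 47.4%). In WT replicates 2, 3 and 4 the numbers were 6, 0 and 1. At least 1 sample marked 16 of the 19, and those without a peak were *Eef2*, the translocation factor, *Rack1*, a scaffold on the small subunit, and *Eif3h*. *Nap1l1*, a histone chaperone, and *Eif4b*, an initiation factor, were marked in all 3 *Sirt7*-/- samples, each also in WT replicate 2, so no gene of this list met the rule of 3 *Sirt7*-/- samples without WT. *Rpsa*, *Fau* and *Rpl36al*, ribosomal proteins among them, each had a peak in 1 *Sirt7*-/- sample and none in WT.

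Mitochondrial ribosomal protein genes, whose products form the separate ribosome of that organelle, had lower shares than the cytosolic ones in each *Sirt7*-/- sample. Of 78 genes, 17, 7 and 16 had a peak (21.8%, 8.97% and 20.5%), and in WT replicates 2, 3 and 4 there were 5, 1 and 0. Of 49 proteasome subunit genes, another set for a large complex, 13, 7 and 11 had a peak in *Sirt7*-/- (26.5%, 14.3% and 22.4%) and 6, 0 and 1 in WT. Both lists lay below the cytosolic ribosomal protein genes in every *Sirt7*-/- sample, and 1 gene of each met the rule of 3 *Sirt7*-/- samples without WT. No test was made of these differences between lists.

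Reads that aligned to more than 1 place had been removed before the peaks were called. Many ribosomal protein genes have processed copies elsewhere in the genome, and what part this removal had in the calls, or in the 35 genes without a peak, was not tested.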

How the data were processed

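H3K36ac ChIP-seq peak lists of 3 WT and 3 *Sirt7*-/- samples of Pnd 5 spermatogonia-enriched cells were analysed, grouped by the sample labels. According to the study's methods and the submitters' notes, the authors used Trim Galore 0.6.6 for trimming and Bowtie2 2.4.4.1 for alignment to mm10. Duplicates, reads with several alignments and reads of mapping quality below 30 were removed. Each sample and its matched input then went through MACS2 2.2.5 in broad mode (cutoff 0.1). Spike-in nucleosomes had been added but no factor was applied. The deposited lists give each peak's fold over input (a ratio) and its -log10 p and -log10 q, and a score that was not used. The study states the clean reads of each library before filtering, by which the shortest list, that of WT replicate 3, did not come from the shallowest library. The reads left after filtering, on which a call rests, are not held in the lists, so the precision of a single call could not be given.

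Gene starts came from the RefSeq table of GRCm38.p6. Strand came from the RefSeq promoter table for 17491 genes and from GENCODE vM39 by symbol and chromosome for 3973, and 419 protein-coding genes without strand were left out. Of 8740 peaks, 85.8% lay within 3000 bp of a protein-coding start. Coordinates of other builds were not used. The table holds no exons, so peaks were placed only relative to gene starts and ends.

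Calls per gene were compared by two-sided Fisher's exact tests over 21464 starts with Benjamini-Hochberg adjustment, in Python 3.11.15 with pandas 2.3.3, NumPy 2.4.6, SciPy 1.17.1 and matplotlib 3.10.9. Assignment to starts was tested on simulated data. Values in every sample are given for the members marked in the most samples, for those marked in every *Sirt7*-/- but never in a WT sample, and for paralogs with a peak. Some members are counted but not reported by name here. The members, lists and motifs were chosen with earlier results of these data known. Alternatives were another window, a stricter -log10 q, lists of equal length, a minimum width, peak midpoints, autosomes, either gene end, own start nearest, rank by fold, a replicate block and each replicate left out.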

Additional observations from a re-analysis of the deposited data

How the results depend on the processing

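The number of genes marked in every *Sirt7*-/- but no WT sample (6) ranged from 6 to 11 when 1 replicate was left out, and the number marked in at least 1 WT sample (18) from 2 to 18, the lowest without WT replicate 2. With equal lists of 64 peaks, 0 genes met the rule, the difference in means was -0.667, 1 gene was marked in any *Sirt7*-/- and 3 in any WT sample, and the ratio of member share to background was 1.29 in *Sirt7*-/- and 3.57 in WT samples. The best 64 peaks are a small part of the longer lists, so few genes could be reached. With a -log10 q of at least 2 the difference was 15, the WT number 9 and the WT ratio 2.01. Leaving out 1 WT replicate moved the WT ratio between 2.35 and 4.24. With peaks of at least 500 bp, 2 genes met the rule and the difference was 10.3. A window of 1000 bp gave a ratio of 3.11, and counting only peaks nearest to the gene's own start, chosen after seeing the data, gave 3.21. Beyond the equal lists, whose length is their construction, the cause of these changes was not tested. In all, 60 main values under an alternative kept their direction and stayed within the range set for them. They include WT ratios given above, also the 2.01 and 4.24, so that range was wide for this ratio. They also include the values that counted every transcript start, an alternative likewise chosen after seeing the data.

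Replicate numbers were not taken to pair the samples, because the labels name no shared litter or day. A correlation of calls over the members cannot decide this, since WT replicates 3 and 4 had 1 marked member each. With the number as a replicate block, the differences were 15, 24 and 27 genes with a mean of 22, and 6 genes met the rule, as without it. The reads left after filtering are not held in the lists, which cannot separate fewer detected peaks from less of the mark.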
